A study of Homo sapiens with 22 samples.

Results

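The long non-coding RNAs (lncRNAs) described here are 10 genes taken by name from the 15797 genes of the deposited table. NEAT1 and MALAT1 are retained in the nucleus. GAS5, ZFAS1, SNHG1, SNHG5, SNHG6, SNHG8, SNHG12 and SNHG15 are host genes, whose introns carry small nucleolar RNAs (snoRNAs). All 10 were found, and all 10 passed the filter on low values that 15611 genes passed.

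The study asked how deletion of the B domain of coagulation factor VIII (FVIII) alters the secretion of the protein compared with the full-length form. Total RNA was sequenced from untreated clones of the HEK293 embryonic kidney line grown to about 70% confluency. The labels give 6 clones with B-domain deleted FVIII (BDD; clones 1, 2, 7, 12, 13 and 27, clone 2 being titled oldbdd) and 4 clones with full-length FVIII (FL; clones 4, 7, 9 and 10), and 2 libraries of each, lettered a and b. A further line, titled HEK 28 but carrying the full-length genotype label, also had both libraries and was kept out of the groups. The cell line label of every library, BDD and FL alike, reads HEK28. Each clone is a single isolate, so a difference between BDD and FL is a difference between 6 and 4 such isolates, and nothing in the labels tells whether the lettered libraries of a clone are separate cultures.

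NEAT1 is the scaffold around which paraspeckles, nuclear bodies built by RNA-binding proteins such as NONO and SFPQ, are assembled, and MALAT1 is an abundant RNA of nuclear speckles, where splicing factors are stored. In a snoRNA host gene the snoRNA is cut out of a spliced intron and goes on to guide the modification of ribosomal or spliceosomal RNA. The exons that are left form a spliced RNA that usually encodes no conserved protein. Many of these spliced RNAs enter ribosomes and are destroyed by nonsense-mediated decay (NMD), the pathway that removes RNAs with early stop codons, so their levels depend on translation and decay as well as on transcription. Several also begin with a C and a run of pyrimidines, the 5′ terminal oligopyrimidine (TOP) start known from ribosomal protein messages.

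The starts of 4 host RNAs with such a run are shown first, because the start is the sequence feature these genes are known for. They are the first 30 bases of 1 GENCODE 29 transcript of the gene named on each line, 5′ to 3′ in DNA letters, with the initial pyrimidine run in capitals.

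GAS5 transcript: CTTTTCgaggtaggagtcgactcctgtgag
ZFAS1 transcript: CTTTCgcgtctgcggtgcccggagtgtggt
SNHG5 transcript: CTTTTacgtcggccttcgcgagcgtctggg
SNHG12 transcript: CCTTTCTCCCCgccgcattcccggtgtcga

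A start of this kind, a C followed by at least 4 pyrimidines (C or T), was found in 4979 of 206694 GENCODE 29 transcripts, or 2.41%. Among the members it was found in 6 of 29 transcripts of GAS5, 3 of 10 of ZFAS1, 1 of 25 of SNHG1, 3 of 23 of SNHG5, 3 of 5 of SNHG6, 1 of 5 of SNHG8 and 4 of 17 of SNHG12. It was found in 0 of 8 transcripts of NEAT1, 0 of 17 of MALAT1 and 0 of 10 of SNHG15, so SNHG15 was the host without it in this annotation. Transcripts with a pyrimidine start were annotated for hosts called higher in BDD clones and for SNHG5, called lower. Any part of the start in these levels was not tested.

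RefSeq promoter entries on GRCh38.p14 matched 7 members with 8 entries. The entries were searched on the transcribed strand for TATAA beginning 40 to 20 bases before the start and for the pyrimidine start at the start itself. SNHG12, SNHG5 and ZFAS1 held both, which 33 of 35116 promoters of the same length did (0.0940%), against 3.91% with TATAA and 4.07% with the pyrimidine start. Their windows from 40 bases before to 20 bases after the start are given with both features in capitals. The entries of GAS5, SNHG1, SNHG8 and MALAT1 had no pyrimidine start. TATAA was found in that of SNHG8 and in the MALAT1 entry shown, but not in those of GAS5 and SNHG1. Any part of these features in the RNA levels was not tested.

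ZFAS1 promoter (chr20:49278602-49278661, plus strand): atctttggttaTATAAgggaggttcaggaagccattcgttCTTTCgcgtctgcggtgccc
SNHG12 promoter (chr1:28581854-28581913, minus strand): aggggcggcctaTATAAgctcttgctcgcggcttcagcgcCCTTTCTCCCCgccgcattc
SNHG5 promoter (chr6:85678714-85678773, minus strand): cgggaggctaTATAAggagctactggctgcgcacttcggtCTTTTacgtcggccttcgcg
MALAT1 promoter (chr11:65499005-65499064, plus strand): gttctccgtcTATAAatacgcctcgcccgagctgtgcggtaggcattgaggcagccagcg

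The MALAT1 entry, the second of its 2 starts, carried TATAA 30 bases before the start and no pyrimidine run. TATAA began 29 bases before the ZFAS1 start, 28 before that of SNHG12 and 30 before that of SNHG5. Binding motifs of stress and growth factors were searched on both strands of the 300 bases. The E-box CACGTG was present in 7.26% of all promoters and in none of the members' entries. The AP-1 motif TGACTCA was present in 4.95% and in none. The CRE motif TGACGTCA was present in 1.85% and in none, and the composite ATF4 motif TGATGNAAT was present in 0.991% and in none. With 8 entries and motifs this rare, finding none is the likely outcome and does not show that such sites are lacking. NEAT1, SNHG6 and SNHG15 had no entry to search. A match is a string of letters in a window and was not tested as a binding site.

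Levels are the authors' log2 CPM values (read counts scaled for library size, with a further factor per library), averaged over the libraries of a clone. Groups were compared over 6 BDD and 4 FL clones with limma. A gene was called when its p (Benjamini-Hochberg adjustment over 15611 genes) was below 0.05. By that rule 32.5% of all genes tested were called, 16.1% as higher and 16.5% as lower in BDD clones. Of the 10 members, 7 were higher (NEAT1, MALAT1, GAS5, ZFAS1, SNHG1, SNHG6 and SNHG12), 1 was lower (SNHG5), and SNHG8 and SNHG15 did not pass. The median difference of the 10 was 0.72 on the log2 scale, beside 0.0087 over all genes tested. LncRNA genes as a class lay to the same side. Of 1992 lncRNA genes tested, 22.0% were higher and 5.42% lower, with a median difference of 0.26. Of the 170 lncRNA genes with a mean of at least 4 log2 CPM, a level all 10 members exceeded, 29.4% were higher and 4.71% lower, with a median of 0.20.

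The members' share of all reads was 0.408% ± 0.0491 (SD, n = 6) for BDD and 0.257% ± 0.00803 (SD, n = 4) for FL clones. The lowest BDD clone, 13, had 0.345%, above the highest FL clone, 10, with 0.263%. The HEK 28 line had 0.299%, between the groups. Reads of all lncRNA genes together came to 2.73% ± 0.101 (SD, n = 6) for BDD and 2.10% ± 0.152 (SD, n = 4) for FL. Reads from the mitochondrial genome were a smaller share in BDD clones, 7.00% ± 0.723 (SD, n = 6) for BDD and 9.20% ± 0.294 (SD, n = 4) for FL, and their part in the members' levels was not tested. With bulk RNA, a change in the make-up of a culture and a change in RNA per cell cannot be told apart.

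**Figure D1:**
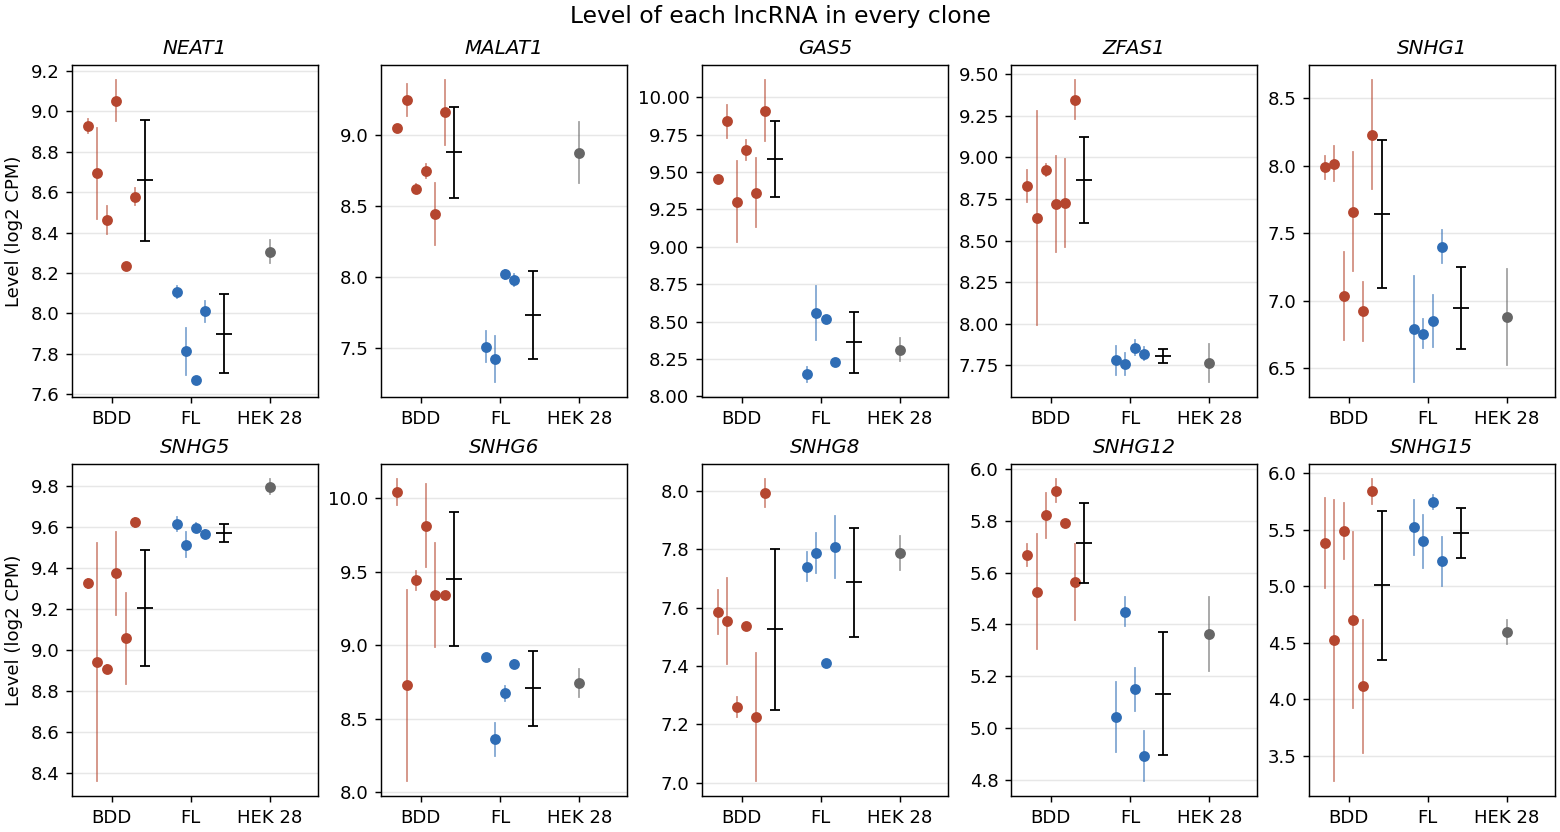
Level of the 10 lncRNAs in every clone, in log2 CPM as deposited. Points are clones in order of clone number (BDD 1, 2, 7, 12, 13 and 27; FL 4, 7, 9 and 10; the HEK 28 line), thin lines span libraries a and b, and black bars give the group mean with its SD; each panel has its own axis. NEAT1, MALAT1, GAS5, ZFAS1 and SNHG12 have every BDD clone above every FL clone, as do 10.7% of all genes tested. SNHG1, SNHG5, SNHG6, SNHG8 and SNHG15 do not.

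Facts of the whole data set that bear on these values are as follows. Recovered reads numbered 4951081 to 6197084 per library, and each member had between 45 and 6328 reads in a library. Library b of BDD clone 2 had the lowest mean correlation with the other libraries, 0.903 against 0.920 to 0.943, and the libraries of BDD clones 2, 12 and 13 differed most from their partners (chi-square per gene 46.4, 19.8 and 13.2, against 5.82 to 10.7 in the other lines). F8, which the transgene encodes, was at 5.44 ± 2.18 (SD, n = 6) log2 CPM in BDD and 7.55 ± 0.35 (SD, n = 4) in FL clones. Of 12 kidney and HEK293 markers 11 were in the table, with PAX2 near the floor at 0.42 and 0.39 log2 CPM and KRT18 at 6.47 and 5.51. Among markers of other cell types, COL1A1, MBP and COL3A1 had group means of 2.69 to 4.75 log2 CPM. COL1A1 was higher in BDD clones, by 0.95 (log2), and its part in the members' levels was not tested.

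NEAT1, the paraspeckle scaffold (chr11:65422774-65445540, plus strand), had a lowest, median and highest level of 8.23, 8.64 and 9.05 log2 CPM in the BDD clones. The FL clones 4, 7, 9 and 10 had 8.11, 7.81, 7.67 and 8.01. All 6 BDD clones lay above all 4 FL clones, but clone 13 did so by a small margin. The means were 8.66 ± 0.30 (SD, n = 6) and 7.90 ± 0.20 (SD, n = 4), a difference of 0.76 ± 0.15 (SE) with a 95% interval of 0.44 to 1.08 (1.69-fold; limma adjusted p = 0.00182). At 8.31, the line titled HEK 28 was above every FL clone and inside the BDD range. Short and long isoforms of NEAT1 share their start and cannot be separated in a table with 1 value per gene.

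MALAT1, the nuclear speckle RNA (chr11:65497688-65506516, plus strand), lies downstream of NEAT1 on the same strand. Its BDD clones had a lowest, median and highest level of 8.44, 8.90 and 9.25 log2 CPM. FL clones 4 and 7 were low, at 7.51 and 7.42, and clones 9 and 10 were at 8.02 and 7.98. The groups did not overlap. The means of 8.88 ± 0.32 (SD, n = 6) and 7.73 ± 0.31 (SD, n = 4) differed by 1.14 ± 0.17 (SE), interval 0.78 to 1.51 (2.21-fold; limma adjusted p = 0.000254). At 8.87, the HEK 28 line was level with the BDD mean and 1.14 above the FL mean, although its label gives the full-length genotype. The order of clones differed between the neighbours. BDD clone 12 was highest for NEAT1 and clone 2 for MALAT1, and FL clone 9 was the lowest FL clone for NEAT1 and the highest for MALAT1. Their deviations from the group means correlated at 0.24 over 10 clones.

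GAS5 (chr1:173863900-173868882, minus strand) is a host known to accumulate when growth stops and translation slows. A pyrimidine start was annotated for 6 of its 29 transcripts and was absent at its RefSeq start. Its BDD clones had a lowest, median and highest level of 9.30, 9.55 and 9.91 log2 CPM. FL clones 4, 7, 9 and 10 had 8.15, 8.56, 8.52 and 8.23. The lowest BDD clone, 7, stood clear of the highest FL clone, also numbered 7.
The means of 9.59 ± 0.25 (SD, n = 6) and 8.36 ± 0.20 (SD, n = 4) differed by 1.22 ± 0.14 (SE), interval 0.93 to 1.52 (2.33-fold; limma adjusted p = 3.52e-05), the largest difference among the members. At 8.31, HEK 28 fell inside the FL range.

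ZFAS1 (chr20:49278178-49295738, plus strand) is a host of the SNORD12 family beside the start of the zinc finger gene ZNFX1. Its FL clones were almost level, at 7.78, 7.76, 7.86 and 7.82 log2 CPM for clones 4, 7, 9 and 10. The lowest, median and highest BDD clones had 8.64, 8.78 and 9.35. All BDD clones lay above all FL clones, and clone 27 stood above the other BDD clones. Library b of BDD clone 2, at 8.00, was the BDD library next to the FL values. The means of 8.86 ± 0.26 (SD, n = 6) and 7.81 ± 0.04 (SD, n = 4) differed by 1.06 ± 0.13 (SE), interval 0.79 to 1.33 (2.08-fold; limma adjusted p = 5.39e-05). At 7.76, HEK 28 was again inside the FL range.

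SNHG12 (chr1:28578538-28583132, minus strand) carries SNORA44, SNORA61 and SNORD99. It was expressed at 5.72 ± 0.15 (SD, n = 6) log2 CPM in BDD and 5.13 ± 0.24 (SD, n = 4) in FL clones. The lowest, median and highest BDD clones had 5.53, 5.73 and 5.92, and FL clones 4, 7, 9 and 10 had 5.04, 5.45, 5.15 and 4.89. BDD clone 2 and FL clone 7 were close to each other, without overlap. The difference was 0.58 ± 0.13 (SE), interval 0.30 to 0.87 (limma adjusted p = 0.00439). Every BDD clone was above every FL clone for 5 of the 10 members, NEAT1, MALAT1, GAS5, ZFAS1 and SNHG12, and for 10.7% of all genes tested. These 5 were called in all 26 alternative analyses.

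SNHG6 (chr8:66921684-66926398, minus strand), which carries SNORD87, was higher with overlap. BDD clone 1 was highest at 10.04 log2 CPM, the median was 9.39, and clone 2 was lowest at 8.73, inside the FL range. FL clones 4, 7, 9 and 10 had 8.92, 8.36, 8.67 and 8.88. The means of 9.45 ± 0.45 (SD, n = 6) and 8.71 ± 0.26 (SD, n = 4) differed by 0.74 ± 0.20 (SE), interval 0.31 to 1.18 (1.68-fold; limma adjusted p = 0.0116). The overlap came from 1 library. In BDD clone 2, library a had 9.38 and library b had 8.08. With library b of that clone left out the difference was 0.85 (adjusted p = 0.00142), and with library b alone in every clone it was 0.55 and did not pass (adjusted p = 0.200).

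SNHG1 (chr11:62851988-62855914, minus strand), whose introns carry a cluster of SNORD RNAs, had the largest SD over BDD clones among the 7 higher members. BDD clones 1, 2, 12 and 27 were at 7.99, 8.02, 7.66 and 8.23 log2 CPM, while clones 7 and 13 were at 7.04 and 6.92. FL clones 4, 7 and 9 were at 6.79, 6.76 and 6.85, and clone 10 was at 7.40. BDD clones 7 and 13 therefore lay below FL clone 10 and above the other FL clones. The means of 7.64 ± 0.55 (SD, n = 6) and 6.95 ± 0.30 (SD, n = 4) differed by 0.69 ± 0.24 (SE), interval 0.19 to 1.20 (1.62-fold; limma adjusted p = 0.0351). The call was kept in 3 of the 10 analyses that each left out 1 clone. It was lost without BDD clone 1, 2, 12 or 27 and without FL clone 4, 7 or 9, with adjusted p up to 0.0890.

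SNHG5 (chr6:85660950-85678748, minus strand), host of SNORD50 RNAs, was the 1 member lower in BDD clones. Its FL clones 4, 7, 9 and 10 had 9.62, 9.52, 9.60 and 9.57 log2 CPM. The lowest, median and highest BDD clones had 8.91, 9.19 and 9.62, so 5 BDD clones lay below all FL clones and clone 27 lay above them. The means of 9.21 ± 0.28 (SD, n = 6) and 9.57 ± 0.04 (SD, n = 4) differed by -0.37 ± 0.14 (SE), interval -0.66 to -0.08 (1.29-fold lower; limma adjusted p = 0.0486). The call was kept in 2 of the 10 analyses that left out 1 clone, those without BDD clone 12 or 27, and in 7 of all 26 alternatives. The HEK 28 line had 9.80, above every clone of either group.

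SNHG8 (chr4:118278709-118279823, plus strand), host of SNORA24, had 7.53 ± 0.28 (SD, n = 6) log2 CPM in BDD and 7.69 ± 0.19 (SD, n = 4) in FL clones. The lowest, median and highest BDD clones had 7.23, 7.55 and 7.99, and FL clones 4, 7, 9 and 10 had 7.74, 7.79, 7.41 and 7.81. The ranges overlapped, and the difference of -0.16 (limma adjusted p = 0.411) had an interval of -0.46 to 0.14. SNHG15 (chr7:44983023-44986961, minus strand), host of SNORA9, had 5.01 ± 0.66 (SD, n = 6) in BDD and 5.47 ± 0.22 (SD, n = 4) in FL clones. Its BDD clones spread from 4.11 in clone 13 to 5.84 in clone 27, with a median of 5.04, and FL clones 4, 7, 9 and 10 had 5.52, 5.40, 5.75 and 5.22. The difference of -0.46 (limma adjusted p = 0.208) had an interval of -1.05 to 0.12. It was -0.26 without library b of BDD clone 2 and -0.12 with library a alone.

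**Figure D2:**
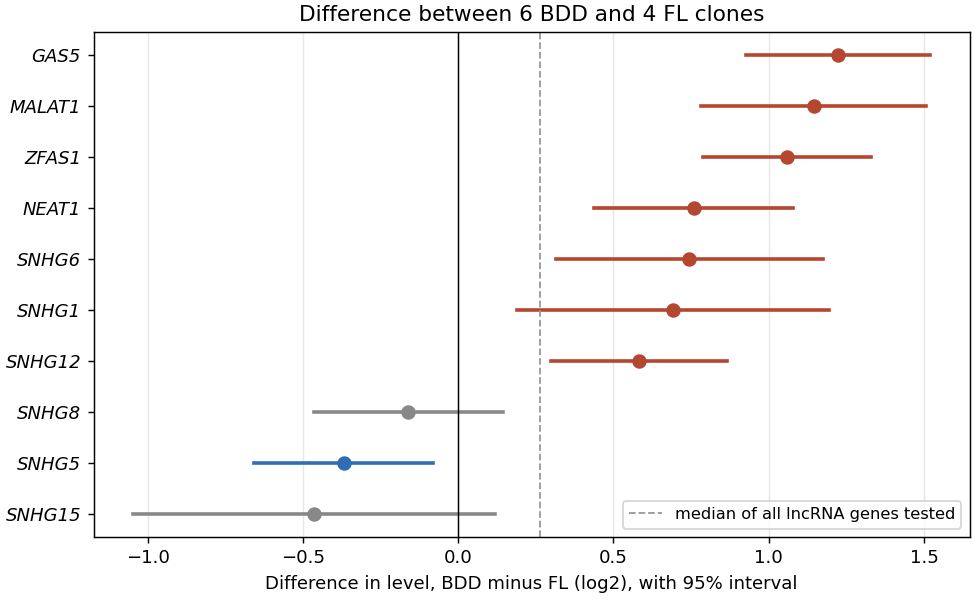
Difference in level between 6 BDD and 4 FL clones (log2, BDD minus FL; horizontal axis) for each lncRNA, with its 95% interval from limma. Red points are called higher, blue lower and grey not called; the dashed line is the median of all lncRNA genes tested, 0.26. The intervals of GAS5, MALAT1, ZFAS1, NEAT1, SNHG6 and SNHG12 lie wholly to the right of that line.

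Compared per length of the merged exons, SNHG6 was the most abundant member, at 561 CPM per kb in BDD and 335 in FL clones. In FL clones SNHG5 came next at 272 CPM per kb, then SNHG8 at 223, ZFAS1 at 99.7 and GAS5 at 90.7. In BDD clones GAS5 at 212, SNHG5 at 211, ZFAS1 at 208 and SNHG8 at 200 CPM per kb were level. NEAT1 was low by this measure, 17.7 and 10.5, because its merged exons span 22767 bases and any reads confined to a short isoform are divided by all of them. MALAT1 had 53.3 and 24.1, SNHG1 53.2 and 32.9, SNHG12 12.3 and 8.22, and SNHG15 8.82 and 12.2 CPM per kb. The merged length is that of GENCODE 29, and the isoforms that these cells use were not measured.

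Ratios between hosts within a clone do not depend on how libraries were scaled. The ratios given were chosen after the values were seen and are a description, with no test. GAS5 over SNHG5 was 0.13 to 0.89 (log2) in the BDD clones and -1.47 to -0.96 in the FL clones, so the RNA with more reads changed places between the groups. ZFAS1 over SNHG5 was -0.65 to 0.01 in BDD and -1.83 to -1.74 in FL clones. ZFAS1 over SNHG8 was 1.08 to 1.67 in BDD and -0.03 to 0.45 in FL clones. SNHG5 over SNHG8, by contrast, overlapped, with 1.39 to 1.84 in BDD and 1.73 to 2.19 in FL clones. The HEK 28 line had -1.49, -2.03, -0.02 and 2.01 for the same ratios, at or near the FL values.

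**Figure D3:**
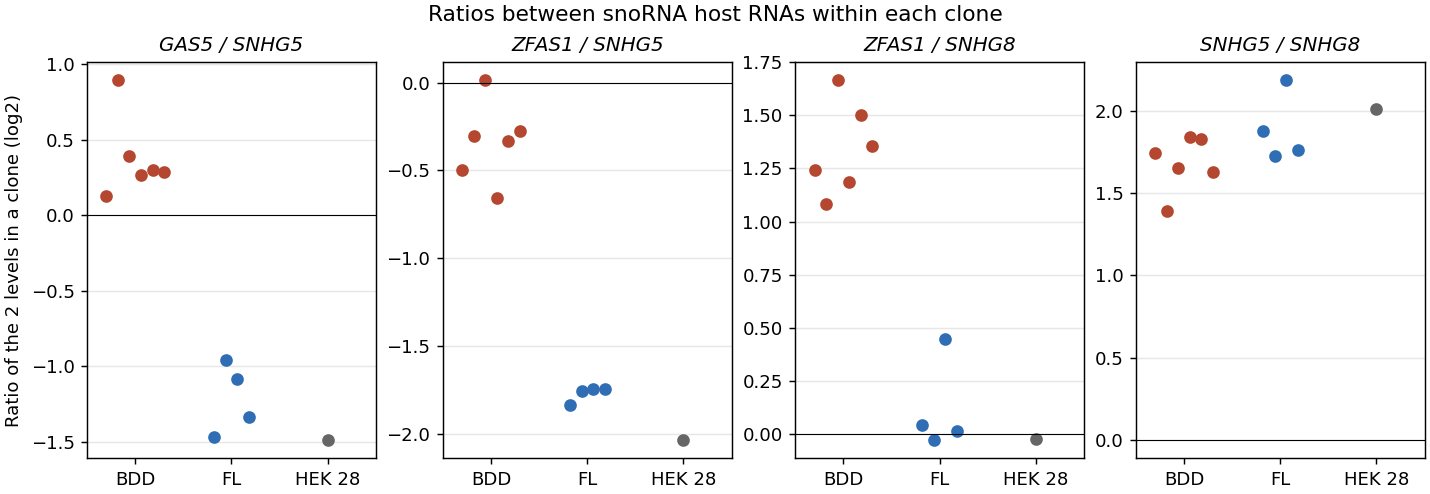
Log2 ratio of the levels of a pair of snoRNA host RNAs within each clone (vertical axis; own scale per panel), by group, with 1 point per clone in order of clone number. GAS5 / SNHG5 runs from 0.13 to 0.89 in BDD and from -1.47 to -0.96 in FL clones, and SNHG5 / SNHG8 overlaps between groups.

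Pairs of members were also compared over the 10 clones, as deviations from their group means. Among hosts, SNHG1 correlated with SNHG8 at 0.79 and ZFAS1 with SNHG15 at 0.80, while SNHG1 correlated with SNHG12 at -0.63 and GAS5 with SNHG6 at -0.52. The nuclear RNA MALAT1 correlated with SNHG1 at 0.84 and with SNHG12 at -0.71. These values share libraries and their scaling, and 45 pairs were looked at. BDD clone 27 had the highest BDD level of GAS5, ZFAS1, SNHG1, SNHG5, SNHG8 and SNHG15. BDD clone 13 had the lowest BDD level of NEAT1, MALAT1, SNHG1, SNHG8 and SNHG15.

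Libraries a and b of a clone set a limit on some members. In BDD clone 2, library a exceeded library b by 1.29 for ZFAS1, 1.16 for SNHG5, 1.30 for SNHG6 and 2.49 for SNHG15 (log2), but by -0.45 to 0.45 for the other 6 members. The same 4 moved together in clone 12, by -0.58, -0.41, -0.56 and -1.56, and in clone 13, by 0.53, 0.45, 0.71 and 1.18. In the other 8 lines these 4 differed by -0.49 to 0.79. The median of 78 ribosomal protein genes, the classic TOP messages, differed by 0.09, -0.03 and 0.02 in clones 2, 12 and 13. The difference between libraries was also correlated, over 11 lines, with the mean difference of these 4 RNAs. For 660 of 15611 genes (4.23%) r was 0.9 or more, and for 156 it was -0.9 or less. The 660 include SNHG7 and SNHG32, at 0.99 and 0.98, and the 4 themselves, which make up the mean. Clone 2, where the differences were largest, weighs most in such an r, so the count is a description. What sets this pattern was not tested. Without clones 2, 12 and 13 the difference between BDD and FL was 1.23 for ZFAS1 (adjusted p = 0.000372) and 0.90 for SNHG6 (0.00697), the same 7 members were higher, SNHG5 was not called (-0.29, adjusted p = 0.209) and SNHG15 changed sign, to 0.10.

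Of the 7 genes in the table that overlap a member or lie within 5 kb of it, 0 were called with limma and 0 had an unadjusted p below 0.05. Among all genes tested 32.5% were called, so a count of 0 in so few genes says little. GAS5-AS1 (0.20 log2 CPM in BDD and 0.11 in FL clones) and MCMDC2 (0.35 and 0.11) were near the floor of -1.45, where a difference is hard to call. GAS5-AS1 and ZBTB37 overlap GAS5 on the other strand and differed by 0.09 and -0.28 (log2, BDD minus FL). ZNFX1, which overlaps ZFAS1, differed by 0.19, MCMDC2, which overlaps SNHG6, by 0.24, and TRNAU1AP, which overlaps SNHG12, by -0.26. SLC3A2, an amino acid transporter subunit that lies 188 bases from SNHG1, differed by 0.00 on the log2 scale, and PRSS12, 215 bases from SNHG8, by -0.22. The smallest adjusted p of the 7 was 0.258. The counting is not stated to use strand, so reads in overlapping stretches may be shared. The snoRNAs themselves were not analysed here.

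The HEK 28 line stood with the FL clones for some members and with the BDD clones for others. It fell inside the FL range and outside the BDD range for GAS5, ZFAS1, SNHG1 and SNHG12, and inside the BDD range alone for NEAT1, MALAT1 and SNHG15. It was inside both for SNHG6 and SNHG8 and inside neither for SNHG5. The hosts with the largest difference between groups were thus at FL levels in this line, and both nuclear RNAs were above all FL clones. With 1 line there is no test.

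Of 15 other snoRNA host lncRNAs tested, 5 were higher and 2 lower, beside 22.0% higher and 5.42% lower of all lncRNA genes tested. The median difference of the 15 was -0.01 (4 to 6 higher and 1 to 3 lower over the 26 alternatives). SNHG32 was higher by 1.42 ± 0.17 (SE; 9.49 and 8.07 log2 CPM), SNHG7 by 1.13 ± 0.17, EPB41L4A-AS1 by 1.05 ± 0.15 and SNHG29 by 0.64 ± 0.14, with limma adjusted p of 5.39e-05, 0.000266, 0.000142 and 0.00331. SNHG9 was higher by 0.60 ± 0.21 (limma adjusted p = 0.0422), a call kept in 4 of the 10 analyses that left out 1 clone and in 14 of all 26 alternatives. SNHG10 and DANCR were the lower ones, at -1.15 ± 0.28 and -0.80 ± 0.24, and with each clone's trends removed DANCR was not called (-0.62, adjusted p = 0.0605). SNHG16, SNHG17, SNHG19, SNHG25 and SNHG30 were among the 8 that did not pass.

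Protein-coding hosts showed no common direction. Of 18 tested, 4 were higher and 4 lower, with a median of 0.08 (2 to 6 higher and 2 to 5 lower over the alternatives). Over all genes tested the shares were 16.1% higher and 16.5% lower. TPT1, the TOP message of translationally controlled tumour protein, was higher by 0.77 ± 0.14 (SE; limma adjusted p = 0.00117). EIF4G2, a translation initiation factor, was lower by 0.79 ± 0.15, GNL3, a nucleolar GTPase, by 0.63 ± 0.13 and NCL, nucleolin, by 0.52 ± 0.09. The call of GNL3 was lost after removing each clone's trends with expression level, GC content and length (-0.24, adjusted p = 0.135).

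Of 14 proteins that bind or assemble snoRNAs, 8 were lower and 0 higher with limma, with a median of -0.50. The shares over all genes tested were 16.5% lower and 16.1% higher. At an unadjusted p below 0.05 the counts were 9 and 0, and with limma-voom 7 and 0. NHP2, a core protein of the H/ACA class of snoRNA particles, fell from 7.19 to 5.90 log2 CPM, a difference of -1.29 ± 0.14 (SE; limma adjusted p = 2.11e-05). RUVBL1, an assembly ATPase, was lower by 0.86 ± 0.13, NOP58, a core protein of the C/D class, by 0.63 ± 0.13 and NOLC1, a nucleolar chaperone, by 0.60 ± 0.13. FBL, the methyltransferase of the C/D particle, did not pass (-0.05). After removing each clone's trends 4 of the 14 were lower, and 4 with library a alone. With the trends removed NOLC1 was not called (-0.31, adjusted p = 0.0756) and NOP58 was at -0.35.

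Of 20 factors of NMD and of the exon junction complex that triggers it, 3 were higher and 5 lower, with a median of 0.04. These counts stand beside 16.1% higher and 16.5% lower of all genes tested, and the list as a whole was not tested. MAGOHB, MAGOH and EIF4A3, core proteins of that complex, were lower by 1.22 ± 0.19 (SE), 0.77 ± 0.15 and 0.82 ± 0.17, with limma adjusted p of 0.000407, 0.00200 and 0.00217. RBM8A and CASC3, also of that complex, did not pass (0.13 and 0.05, limma adjusted p = 0.466 and 0.764), so the complex did not fall as a whole. MAGOHB was not called with library a alone (-0.87, adjusted p = 0.0657), and with each clone's trends removed MAGOH and EIF4A3 were at -0.48 and -0.49. GSPT1, a translation release factor, was higher by 0.43 ± 0.11 (adjusted p = 0.00741), a call lost with library a alone and without BDD clones 2, 12 and 13. UPF1, the helicase at the centre of NMD, had 6.79 and 6.76 log2 CPM (difference 0.03, adjusted p = 0.864). Without library b of BDD clone 2 the count of lower factors was 3 rather than 5, and over all alternatives it ran from 2 to 6, with 1 to 3 higher.

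Genes of paraspeckle proteins were lower or did not pass. Of 15 tested, 7 were lower and 0 higher with limma, with a median of -0.30, beside 16.5% lower and 16.1% higher of all genes. The counts were 8 and 0 at an unadjusted p below 0.05, and 6 and 0 with limma-voom. EWSR1 was lower by 0.92 ± 0.14 (SE), SFPQ, a core paraspeckle protein, by 0.71 ± 0.13, MATR3 by 1.00 ± 0.22 and DAZAP1 by 0.43 ± 0.11, with limma adjusted p of 0.000252 to 0.00768. MATR3 was not called with library b alone (-0.96, adjusted p = 0.0514). NONO, the partner of SFPQ, did not pass (-0.27, adjusted p = 0.114). With library a alone 4 of the 15 were lower and 1 higher, and with library b alone 4 were lower. Of 17 proteins of nuclear speckles, 3 were lower and 2 higher, beside the same shares of all genes. Their median was -0.15 (3 to 4 lower and 0 to 3 higher over the alternatives). The splicing factors SRSF2, SRSF7 and SRSF3 fell by 1.37 ± 0.15, 0.96 ± 0.13 and 0.73 ± 0.12, and with the trends removed SRSF7 and SRSF3 were at -0.56 and -0.42. The splicing kinase CLK1 was higher by 0.57 ± 0.17 (adjusted p = 0.0209), a call lost without FL clone 9 and with library b alone.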

How the data were processed

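Total RNA of 22 libraries was sequenced on an Illumina HiSeq 4000, per the labels' protocols. Bowtie, TopHat2, cutadapt, FastQC and the build hg38 appear in the submitters' processing notes without a role. How reads were counted, over which annotation, with which strand setting and filter is not given in the sources used here. Values deposited by the authors are log2 CPM, as found from the table itself. The lowest value, -1.45 (0.367 CPM), equals a prior of 2 reads, and the others stood at whole-read steps in each library, to a tolerance of 0.01, so reads could be recovered. Fold changes include this prior. The library size behind the CPM was 0.941 (FL clone 10, library b) to 1.08 (BDD clone 7, library a) times the recovered reads. The values therefore hold a scaling factor beyond library totals, whose method was not identified. All columns matched a sample.

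Libraries were averaged per clone. Genes with at least 1 CPM in 4 of the 10 BDD and FL clones were tested with limma 3.58.1 (lmFit, eBayes with trend) in R 4.3.3, with Benjamini-Hochberg adjustment and a threshold of 0.05. P-values weigh the difference between groups against the spread between clones, which eBayes moderates over genes. The test was also run on simulated reads in which partner libraries differed by sampling noise alone, unlike the real ones. No conclusion is drawn from that run. Tables used Python 3.11.15, numpy 2.4.6 and pandas 2.3.3. Positions and lengths came from GENCODE 29 (GRCh38), which held all identifiers, and promoters from RefSeq.

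The members and gene lists were chosen with earlier results of these data known. Named are all members, up to 4 called genes of smallest p per list, genes within 5 kb of a member, and the 5 genes most like NEAT1, MALAT1 and the host mean. Others, such as SNHG9, FBL, UPF1 and NONO, were chosen after their values were seen. Of the markers of other cell types, 1 is not reported here. Library letters did not pair clones across groups: differences between libraries a and b correlated at 0.00671 on average over 24 pairs of a BDD and an FL clone (-0.233 to 0.253). Partner libraries differed by more than sampling noise, so none was counted as a repeat. Alternatives covered scaling, filter, prior, limma-voom, single libraries, blocks, clones left out and per-clone trends.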

Additional observations from a re-analysis of the deposited data

Results flagged for a closer look

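For each member, the highest and the lowest clone of each group were compared with the rest of the group by Dixon's ratio, in 20 groups in all, of which chance marks about 1 in 20. SNHG1 in FL clone 10, at 7.40 log2 CPM, stood far above the next FL clone at 6.85, a gap of 0.857 of the whole range. It is the 1 FL clone inside the BDD range of this RNA. SNHG8 in FL clone 9, at 7.41 log2 CPM, stood below the next FL clone at 7.74, a gap of 0.830 of the range. FL clone 9 is also the lowest FL clone for NEAT1.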

How the results depend on the processing

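Across 26 alternatives, NEAT1, MALAT1, GAS5, ZFAS1 and SNHG12 kept their direction and call in every one, SNHG6 in 25, SNHG1 in 18 and SNHG5 in 7. The count of all genes called, 5080, was 2939 with library a alone, 3061 with library b alone and 3146 without BDD clones 2, 12 and 13, and 3695 to 5305 with 1 clone left out. The count of members higher was 6 to 7 with 1 clone left out and 5 with library b alone. The count of members lower was 0 to 1 with 1 clone left out. It was 0 with median of ratios scaling, library totals, limma-voom, library a, library b, the clone as a random block, the letter as a replicate block, per-clone trends removed, without BDD clones 7 and 13, without clones 2, 12 and 13, and without library b of BDD clone 2, the last 3 chosen after seeing the data. With the letter as a replicate block, 5343 genes were called, and 7 members were higher and 0 lower, as SNHG5 had an adjusted p of 0.0616. SNHG8 changed sign with per-clone trends removed (0.16, adjusted p = 0.374) and SNHG15 without BDD clones 2, 12 and 13 (0.10, adjusted p = 0.71); neither was called in any alternative. The causes were not tested.

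Of the calls, 49.3% were higher in BDD clones, 55.7% with library totals and 41.3% for genes with a mean of at least 2 log2 CPM. The planned count models (edgeR, DESeq2) and TMM factors were not run, although reads could be recovered from the log2 CPM values. On the recovered reads, limma-voom, median of ratios scaling and library totals were run. Clones are single isolates, read depth was even, and SNHG12 and SNHG15, the members with fewest reads, had at least 151 and 45 reads in a library.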

Other observations

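The genes whose levels followed NEAT1 most closely over the 11 lines, by Pearson r of log2 CPM, were AP000254.1, PLXNA1, SEC31B, MED15 and H2BC6, at 0.935 to 0.952. Those closest to MALAT1 were CREBL2, TMEM161B, PJA2, TMEM59L and CELF4, at 0.936 to 0.956. For the mean of the 8 hosts they were NPNT, RRM2B, FLG-AS1, AC005332.5 and RPS6KA3, at 0.909 to 0.956. The 3 sets of 5 have no gene in common. MALAT1 and TMEM59L shared the position of the HEK 28 line, which had 3.62 log2 CPM of TMEM59L, as had the BDD mean (3.61), against an FL mean of 2.17. RRM2B, a p53-induced ribonucleotide reductase subunit, had 4.92 in BDD and 3.98 in FL clones, with the HEK 28 line at 4.20. The 11 lines share libraries, scaling and the difference between groups, so the correlations are a description.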
